A study of Saccharomyces pastorianus Weihenstephan 34/70 with 7 samples.

Results

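The genes examined were those of purine and pyrimidine nucleotide synthesis in the lager yeast Weihenstephan 34/70 at the end of high gravity beer fermentation. They were chosen by name from a list of 40 genes, and 39 of them were named by a probe set of the array among 5635 S. cerevisiae genes tested. The absent symbol was ADE5,7, and each of the other members had a single probe set. By step, 5 members make the shared precursor PRPP, 10 build or regulate the purine ring, 6 turn it into AMP, ADP and GMP, 4 salvage purines, 8 make pyrimidines, 2 salvage pyrimidines and 4 are subunits of ribonucleotide reductase. RNA came from the stationary phase of fermentations at 14 °C in wort of 21 °Plato that contained either glucose syrup or maltose syrup. Each wort was fermented without enzyme (control) or with 60 ppm of Flavourzyme, a mixture of peptidases that releases amino acids and small peptides from wort protein. The 7 arrays comprised 2 glucose controls and 2 maltose controls, and with Flavourzyme 2 arrays of glucose wort and 1 of maltose wort. All groups were the same strain, a natural hybrid whose genome combines S. cerevisiae with another Saccharomyces species, while the probes were designed for S. cerevisiae, and how far transcripts of the other genome bound to them was not tested.

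Purine nucleotides are built stepwise on a ribose phosphate, supplied as PRPP, until inosine monophosphate (IMP) is complete, and IMP is then converted to AMP or GMP. Pyrimidines are made in the opposite order, since the ring is closed first and then joined to PRPP to give UMP, the source of CTP. Cells can bypass both routes by salvaging free bases and nucleosides, and ribonucleotide reductase converts the finished ribonucleotides to the building blocks of DNA. In yeast the purine genes are switched on by the transcription factors Bas1 and Pho2 when adenine is scarce and are low when it is supplied.

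Signals are given as log2 values, which the authors normalised between arrays, so that a difference of 1 is a change of 2-fold. A signal is relative to the other RNA on its array, and fewer cells or less RNA per cell cannot be told apart from it. Since probe sets differ in how well they bind, levels are compared between arrays and not between genes. Each gene was tested with limma's two-sided moderated test in a model of the 4 group means, with p adjusted by the Benjamini-Hochberg method over all genes tested, and was called at an adjusted p under 0.05. The authors' methods state that RNA was sampled in duplicate, without saying whether the duplicates came from separate fermentations, so the p-values measure only the spread between these samples. The text of the study also states that the time of sampling depended on the wort and on Flavourzyme, so these effects cannot be told apart from that of sampling time.

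The mean signals of all 39 members, 6.19 to 12.53, lay above 4.96, the 95th percentile of the probe sets for the distantly related S. pombe on the same arrays. The duplicates of the maltose control differed by a median of 0.09 over the members and those of glucose wort with Flavourzyme by 0.14, but the glucose controls by 0.54. In the glucose controls 6 members were over 1 log2 unit apart, with replicate 1 higher in 5 of them, and 21.5% of all genes were equally far apart. Each gene's estimate of the spread was shared by all groups, so these gaps entered every comparison. Standard errors of the members were 0.174 to 0.566 between the control worts. They were larger, 0.213 to 0.693, between the worts with Flavourzyme, where maltose has a lone array. The mean signal of 7 probe sets for ribosomal RNA was 11.37 to 13.09 on the glucose arrays and 8.895 to 9.967 on the maltose arrays. With Flavourzyme it was 13.09 and 12.3 in glucose wort, against 11.37 and 11.72 in the controls. In maltose wort it was 9.967 with the enzyme and 8.895 and 8.973 without. It thus moved with every comparison of worts or of Flavourzyme given here, and its part in them was not tested. The difference between the 5′ and 3′ probe sets of ACT1, a measure of RNA integrity, overlapped between the worts. It was -1.05 to -0.63 with glucose and -1.06 to -0.80 with maltose. The same difference for SPT15 did not overlap, at -1.13 to -0.727 with glucose and -1.43 to -1.19 with maltose. By Flavourzyme, the ACT1 difference in glucose wort was -0.959 and -1.05 with the enzyme and -0.625 and -0.898 without. In maltose wort it was -1.06 with the enzyme and -0.804 and -1.01 without. For SPT15 the arrays with and without Flavourzyme overlapped in each wort. The part of RNA integrity in the comparisons of worts or of Flavourzyme was not tested.

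**Figure D1:**
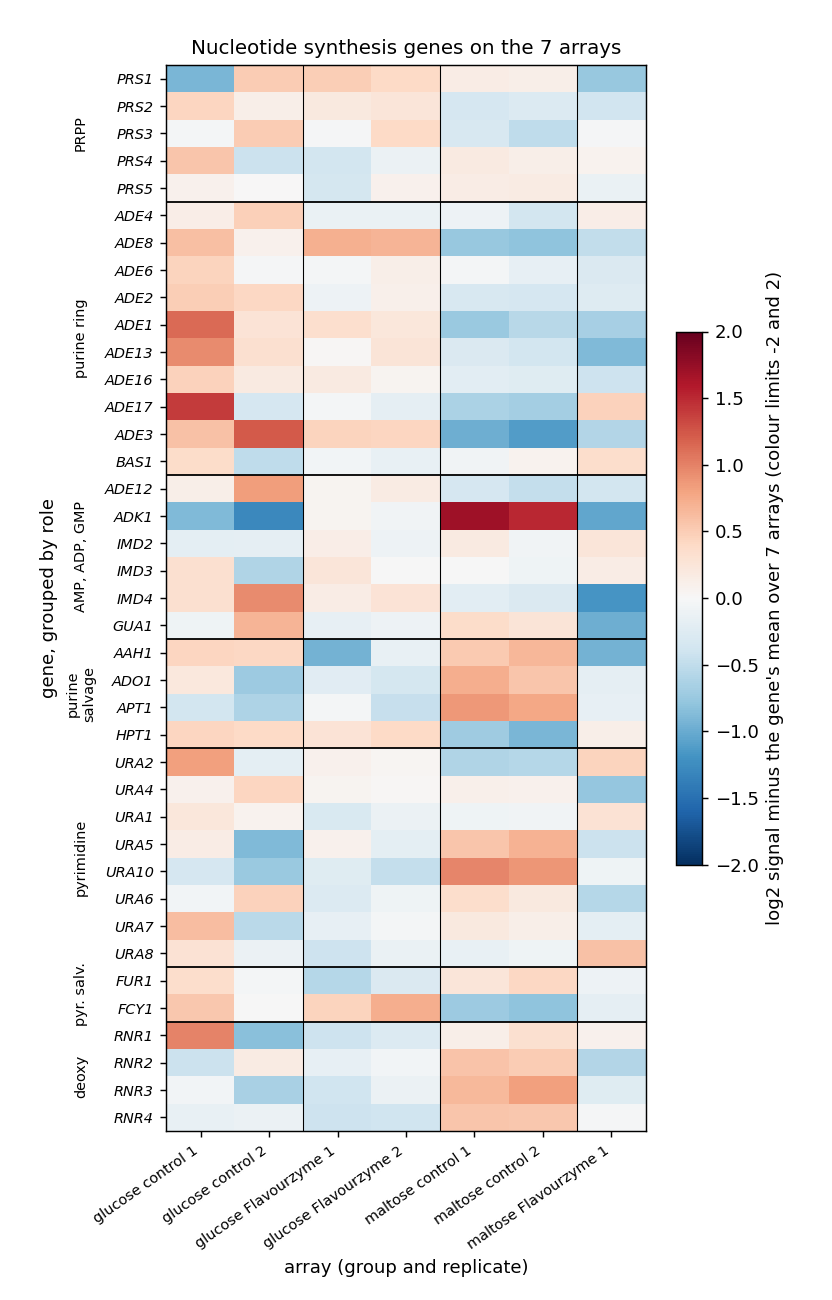
Each row is a gene and each column an array, and the colour gives the log2 signal minus that gene's mean over the 7 arrays, from blue (lower) to red (higher), with colour limits at -2 and 2. The purine ring genes from ADE8 to ADE3 are mostly red on glucose arrays and blue in the maltose controls, and ADK1 is deep red in the 2 maltose controls.

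Without Flavourzyme, 5 of the 10 genes for building or regulating the purine ring were down-regulated with maltose syrup. By contrast, ADK1, the adenine salvage gene APT1, the pyrimidine gene URA10 and the ribonucleotide reductase genes RNR3 and RNR4 were up-regulated. Of the 39 members, 13 were called between the maltose and glucose controls, beside 28.6% of all genes tested. There were 8 members lower with maltose, beside 9.81% of all genes, and 5 higher, beside 18.7%. The 2 maltose controls did not overlap with the 2 glucose controls for 28 members, beside 70.7% of all genes, and lay below them for 17 and above them for 11, beside 27.1% and 43.6%. After the arrays were renormalised over the S. cerevisiae probe sets alone, these backgrounds were 14.6% lower and 17.1% higher, and the members called were 10 lower and 5 higher. The median log2 fold change was 0.01 over the members and 0.20 over all genes, and renormalisation brought them to -0.37 and 0.02. Without glucose control replicate 1 or 2 the median over the members was -0.15 or -0.37, beside 0.30 or 0.11 over all genes. Without replicate 1 the members called numbered 26, beside 66% of all genes, and without replicate 2 they numbered 23, beside 48.9%. Without either maltose control, which leaves a lone array there, 0 were called, beside 0.0177% of all genes. Without either glucose Flavourzyme array, which enters only the estimate of the spread, 5 were called, namely ADE3, ADK1, APT1, HPT1 and URA10, beside 8.61%. An analysis of variance without moderation also called 5, namely ADE2, ADK1, HPT1, URA10 and RNR4, beside 10.3%.

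**Figure D2:**
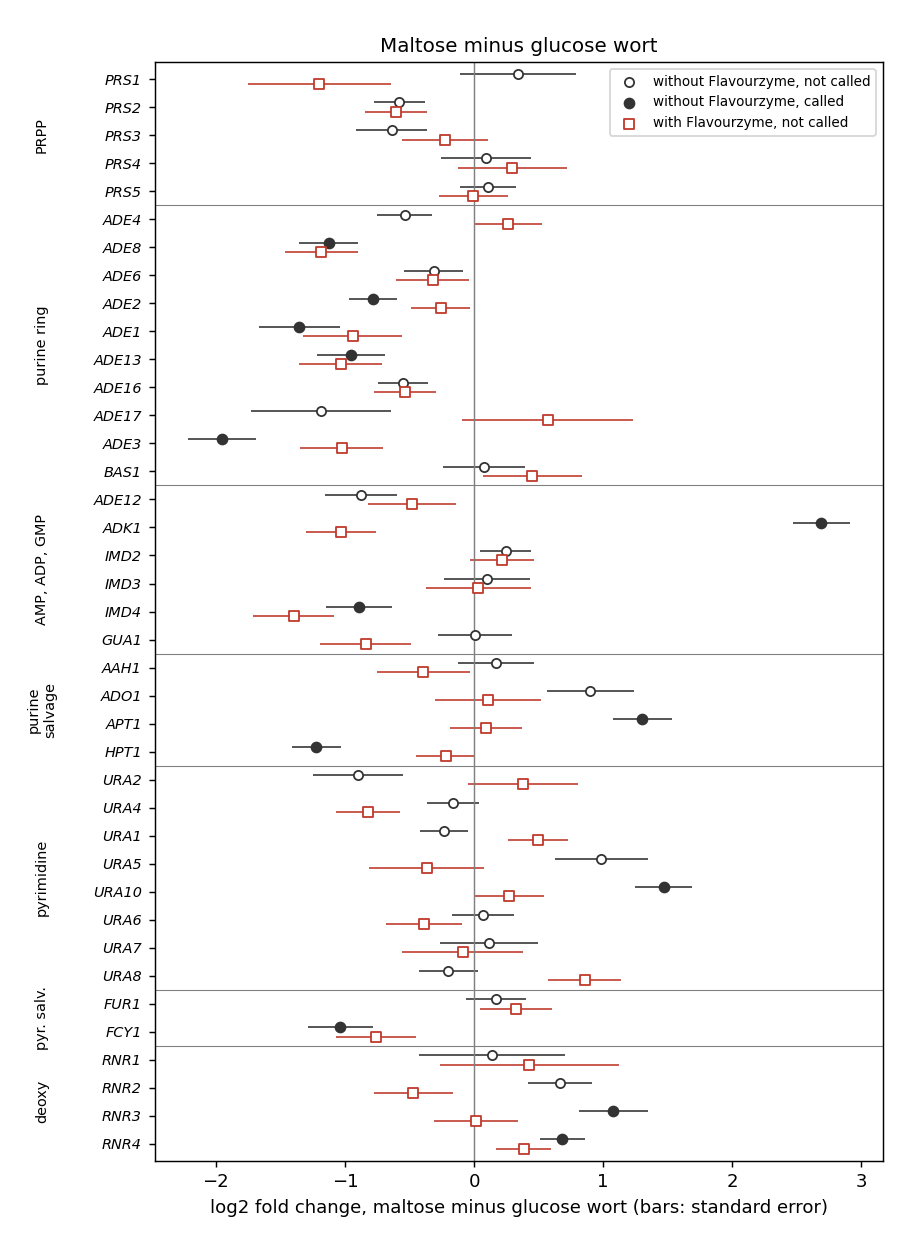
The log2 fold change of each member between maltose and glucose wort is plotted with its standard error, as circles without Flavourzyme (filled where called) and as open squares with Flavourzyme, where 0 were called. The 13 filled circles lie from -1.95 (ADE3) to 2.69 (ADK1). Without Flavourzyme 9 of the 10 genes that build or regulate the purine ring lie below 0, as do 2262 of the 5635 genes tested.

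Of the 10 genes of the purine ring group, 5 were called lower in the maltose control and 0 higher, beside 9.81% and 18.7% of all genes. The median log2 fold change of the group was -0.87, which is 1.07 below that of all genes. Without moderation ADE2 alone of the 5 was called. ADE3 encodes the cytoplasmic enzyme that interconverts the folate compounds from which the ring takes its formyl groups. Its signal was 12.91 and 13.57 in the glucose controls, 11.35 and 11.22 in the maltose controls, 12.78 and 12.76 in glucose wort with Flavourzyme and 11.74 in maltose wort with Flavourzyme. All 4 glucose arrays were thus above all 3 maltose arrays, by more than the duplicates differed. Without Flavourzyme ADE3 was 3.88-fold lower with maltose (log2 fold change -1.95, standard error 0.26, adjusted p = 0.0106). ADE8, whose product adds the first formyl group, stood at 11.33 and 10.82 in the glucose controls, 9.97 and 9.92 in the maltose controls, 11.43 and 11.41 with Flavourzyme in glucose wort and 10.24 with it in maltose wort. Again no maltose array reached the lowest glucose array, and the fold change between the controls was 2.18 (log2 fold change -1.13, standard error 0.23, adjusted p = 0.0212).

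The 3 consecutive later steps had the same order of worts. ADE2, for the carboxylase step whose loss gives the red adenine-requiring colonies of yeast genetics, gave 11.08 and 11.01 in the glucose controls, 10.27 and 10.25 in the maltose controls, 10.48 and 10.68 in glucose wort with Flavourzyme and 10.32 in maltose wort with it. The fall between the controls was the smallest of the 5 called in this group (log2 fold change -0.78, standard error 0.19, adjusted p = 0.0305). ADE1, for the following synthetase, gave 11.18 and 10.31, 9.30 and 9.48, 10.38 and 10.27, and 9.38 on the arrays in the same order. Its lowest glucose array lay 0.79 or more above every maltose array, and the log2 fold change was -1.35 (standard error 0.31, adjusted p = 0.0288). ADE13, for a lyase that acts both in the ring and again on the way to AMP, had signals of 11.46 and 10.83, 10.23 and 10.15, 10.54 and 10.77, and 9.62 in that order. For ADE13 the lowest array of all was maltose wort with Flavourzyme, and the log2 fold change between the controls was -0.95 (standard error 0.26, adjusted p = 0.0456).

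The 5 genes of this group that were not called were ADE4, ADE6, ADE16, ADE17 and the regulator BAS1. ADE4, for the committing step, and ADE6 had log2 fold changes of -0.54 (adjusted p = 0.111) and -0.31 (adjusted p = 0.335) between the controls. The related genes ADE16 and ADE17 both encode the enzyme for the last reactions to IMP. ADE16 gave 11.05 and 10.78 in the glucose controls, 10.39 and 10.35 in the maltose controls, 10.77 and 10.65 in glucose wort with Flavourzyme and 10.18 in maltose wort with Flavourzyme. ADE17 gave 11.09 and 9.35, 9.05 and 9.02, 9.66 and 9.52, and 10.16 on the same arrays. The worts were thus apart for ADE16 (log2 fold change -0.55, standard error 0.19, adjusted p = 0.0839) but overlapped for ADE17, whose glucose controls alone differed by more than 1 log2 unit (log2 fold change -1.19, standard error 0.54, adjusted p = 0.148). BAS1 itself, the activator of the group, had a log2 fold change of 0.08 (95% confidence interval -0.70 to 0.85).

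**Figure D3:**
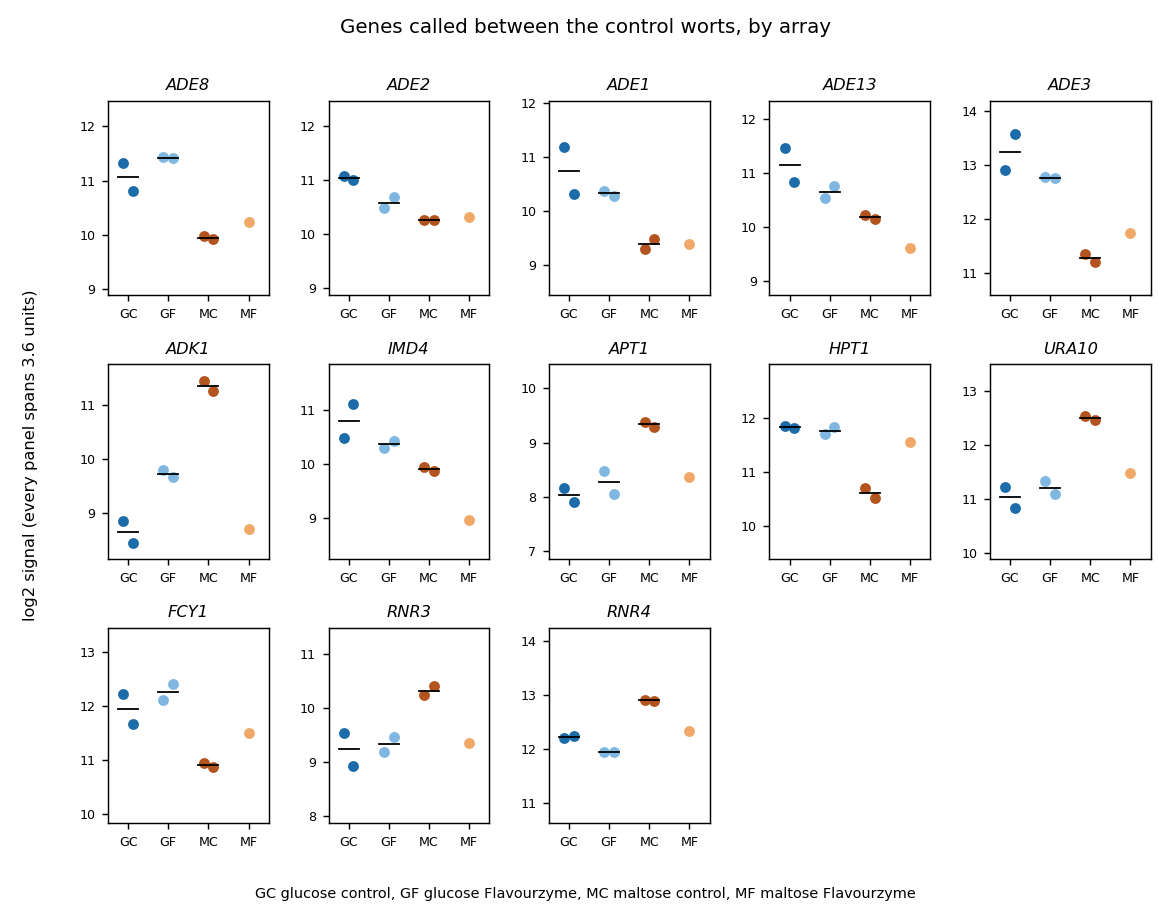
The log2 signal of the 13 members called between the control worts is plotted for each array, with dots for arrays, black lines for means of groups with 2 arrays and the same span of the vertical axis in every panel. The maltose controls (MC) lie apart from the glucose controls (GC) in each panel, and the maltose Flavourzyme array (MF) lies near the maltose controls for ADE2, ADE1 and ADE8 but near the glucose arrays for ADK1, APT1, URA10 and RNR3.

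Among the 6 genes that turn IMP into AMP, ADP and GMP, 1 was called higher and 1 lower, beside 18.7% and 9.81% of all genes. ADK1 encodes adenylate kinase, which balances AMP, ADP and ATP. Its signal was 8.86 and 8.46 in the glucose controls, 11.44 and 11.25 in the maltose controls, 9.79 and 9.67 in glucose wort with Flavourzyme and 8.70 in maltose wort with Flavourzyme. Only the 2 maltose controls were high, 1.46 or more above each other array, and the lone maltose Flavourzyme array lay within the range of the glucose controls. The rise between the controls was 6.45-fold (log2 fold change 2.69, standard error 0.22, adjusted p = 0.00588), the largest of the members in either direction.

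IMP dehydrogenase, the entry to GMP, is encoded by the related genes IMD2, IMD3 and IMD4. For IMD4 the signals were 10.49 and 11.11 in the glucose controls, 9.95 and 9.87 in the maltose controls, 10.31 and 10.44 in glucose wort with Flavourzyme and 8.98 in maltose wort with Flavourzyme. All maltose arrays were below all glucose arrays, and the call was narrow (log2 fold change -0.89, standard error 0.26, adjusted p = 0.0495). Without glucose control replicate 2 the log2 fold change of IMD4 was -0.58. IMD3 ranged from 7.57 to 8.49 on the 7 arrays and IMD2 from 6.0 to 6.43, with overlapping worts and log2 fold changes of 0.10 (95% confidence interval -0.72 to 0.92) and 0.24 (95% confidence interval -0.25 to 0.74). The probe set of IMD2 is marked in the array design as open to binding of near-identical transcripts, so its signal is uncertain. ADE12, for the step from IMP towards AMP, spanned 11.63 to 12.41 on the glucose arrays and 11.10 to 11.25 on the maltose arrays, but it was not called (log2 fold change -0.87, adjusted p = 0.0649). GUA1, for GMP synthase, had a log2 fold change of 0.01 between the controls (95% confidence interval -0.70 to 0.72).

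**Figure D4:**
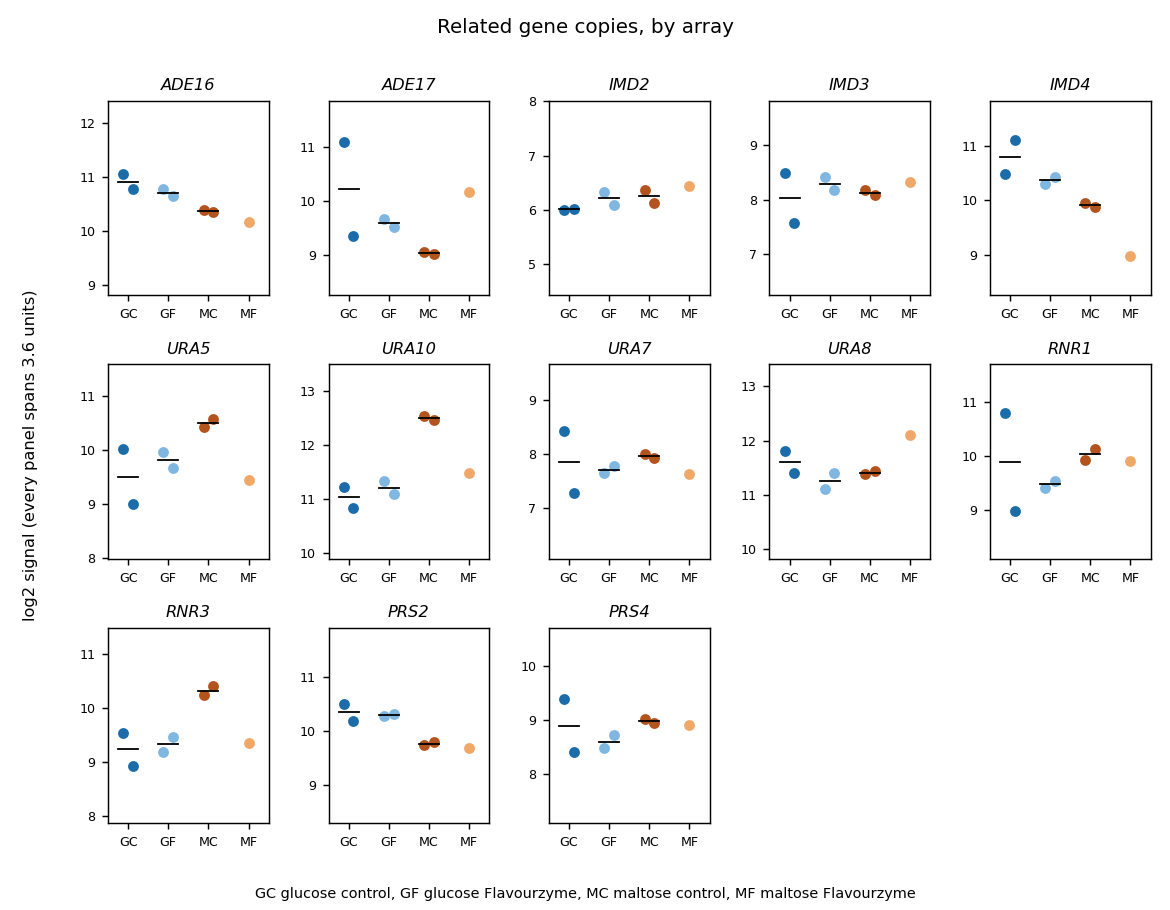
The log2 signal of the related genes ADE16 and ADE17, IMD2 to IMD4, URA5 and URA10, URA7 and URA8, RNR1 and RNR3, and PRS2 and PRS4 is plotted for each array, with dots for arrays, black lines for means of groups with 2 arrays and the same span of the vertical axis in every panel. The maltose controls (MC) are the 2 highest arrays for URA5, URA10 and RNR3, while the 2 glucose controls (GC) lie over 1 log2 unit apart for ADE17, URA5, URA7 and RNR1.

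Of the 4 purine salvage genes, 1 was called higher and 1 lower in the maltose control, beside 18.7% and 9.81% of all genes. APT1, whose product returns adenine directly to AMP, gave 8.15 and 7.90 in the glucose controls, 9.38 and 9.29 in the maltose controls, 8.48 and 8.05 in glucose wort with Flavourzyme and 8.36 in maltose wort with Flavourzyme. It rose 2.47-fold between the controls (log2 fold change 1.30, standard error 0.23, adjusted p = 0.0157), and the maltose controls were again the only high arrays. HPT1, whose product does the same for hypoxanthine and guanine, gave 11.85 and 11.81, 10.71 and 10.52, 11.70 and 11.83, and 11.54 in that order. Here the 2 maltose controls were the only low arrays, and the fall was 2.33-fold (log2 fold change -1.22, standard error 0.19, adjusted p = 0.0127). ADO1, for adenosine kinase, and AAH1, for adenine deaminase, were not called, with log2 fold changes of 0.90 (adjusted p = 0.0936) and 0.17 (adjusted p = 0.689).

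Of the 8 pyrimidine synthesis genes, 1 was called higher in the maltose control and 0 lower, beside 18.7% and 9.81% of all genes. The gene called was URA10. It encodes the minor form of the enzyme that joins orotate to PRPP, and its signal was 11.23 and 10.83 in the glucose controls, 12.55 and 12.46 in the maltose controls, 11.33 and 11.09 in glucose wort with Flavourzyme and 11.48 in maltose wort with Flavourzyme. All 3 maltose arrays were above all glucose arrays, the Flavourzyme array by only 0.15, and the controls differed 2.77-fold (log2 fold change 1.47, standard error 0.22, adjusted p = 0.0126). URA5, the gene of the major form, gave 10.02 and 8.99, 10.43 and 10.56, 9.95 and 9.67, and 9.44 on the same arrays. Its maltose controls were also its 2 highest arrays, but its glucose controls were over 1 log2 unit apart (log2 fold change 0.99, standard error 0.36, adjusted p = 0.0902). The related CTP synthase genes URA7 and URA8 had log2 fold changes of 0.12 (95% confidence interval -0.83 to 1.06) and -0.20 (95% confidence interval -0.76 to 0.37). URA8 reached 12.11 in maltose wort with Flavourzyme, above its range of 11.11 to 11.81 on the other 6 arrays, and URA7 ranged from 7.28 to 8.43 over all arrays. URA2, for the large enzyme that starts the pathway, had a log2 fold change of -0.90 (adjusted p = 0.103). URA4, URA1 and URA6, for the ring closure, its oxidation and UMP kinase, lay between -0.23 and 0.07.

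Of the 2 pyrimidine salvage genes, FCY1, for cytosine deaminase, was called lower, beside 9.81% of all genes. Its signals were 12.21 and 11.67 in the glucose controls, 10.95 and 10.87 in the maltose controls, 12.11 and 12.40 in glucose wort with Flavourzyme and 11.50 in maltose wort with Flavourzyme. The maltose arrays were below all glucose arrays, and the controls differed 2.05-fold (log2 fold change -1.03, standard error 0.25, adjusted p = 0.0326). FUR1, whose product joins the resulting uracil to PRPP, had a log2 fold change of 0.17 (95% confidence interval -0.40 to 0.74).

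Of the 4 subunit genes of ribonucleotide reductase, 2 were called higher in the maltose control and 0 lower, beside 18.7% and 9.81% of all genes. RNR3 encodes the large subunit that is otherwise made after DNA damage, and its signal was 9.55 and 8.94 in the glucose controls, 10.24 and 10.41 in the maltose controls, 9.20 and 9.47 in glucose wort with Flavourzyme and 9.35 in maltose wort with Flavourzyme. Only the maltose controls stood out (log2 fold change 1.08, standard error 0.27, adjusted p = 0.034). RNR4, for a small subunit, gave 12.21 and 12.24, 12.92 and 12.89, 11.95 and 11.95, and 12.33 in that order. Its maltose arrays were all above its glucose arrays (log2 fold change 0.68, standard error 0.17, adjusted p = 0.0368), a call that was lost when the arrays were centred on the S. cerevisiae median. RNR1, the usual large subunit and the relative of RNR3, had 10.80 and 8.99 in the glucose controls, the widest gap between duplicates among the members, and 9.94 and 10.13 in the maltose controls, 9.40 and 9.55 in glucose wort with Flavourzyme and 9.90 in maltose wort with it. The maltose controls lay between the 2 glucose controls, and the log2 fold change was 0.14 (95% confidence interval -1.26 to 1.54). RNR2, for the other small subunit, was at 0.67 (adjusted p = 0.0964).

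None of the 5 PRPP synthetase genes was called between the controls by limma or without moderation, and 1 of them, PRS2, had an unadjusted p under 0.05, as did 2453 of the 5635 genes tested. PRS1 gave 9.73 and 11.14 in the glucose controls, 10.79 and 10.76 in the maltose controls, 11.13 and 11.03 in glucose wort with Flavourzyme and 9.88 in maltose wort with Flavourzyme. Glucose control replicate 1 and the maltose Flavourzyme array were its low ones, and its log2 fold change between the controls was 0.34 (95% confidence interval -0.77 to 1.46). PRS3 gave 10.51 and 11.05, 10.24 and 10.05, 10.54 and 10.95, and 10.52 in that order, with overlapping worts (log2 fold change -0.64, adjusted p = 0.129). The related genes PRS2 and PRS4 differed in pattern. For PRS2 the glucose arrays spanned 10.19 to 10.50 and the maltose arrays 9.69 to 9.79 without overlap (log2 fold change -0.58, adjusted p = 0.0765). For PRS4 the glucose arrays spanned 8.40 to 9.38 and the maltose arrays 8.90 to 9.02, and the log2 fold change was 0.09 (95% confidence interval -0.76 to 0.95). PRS5 stayed between 9.06 and 9.57 on all arrays.

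With Flavourzyme in both worts, 0 of the 39 members were called between maltose and glucose by limma, beside 2.91% of all genes (1.81% higher and 1.1% lower), and 8 members had an unadjusted p under 0.05, as did 1735 of the 5635 genes. An analysis of variance without moderation also called 0. That comparison sets 1 array against 2, the lone array being assumed to vary like the duplicates, and the standard errors of the members were 0.21 to 0.69. Of the 10 genes of the purine ring group, 7 were lower with maltose and 3 higher, as were 2163 and 3472 of the 5635 genes. The group's median log2 fold change was -0.43, and those higher were ADE17 (0.57), BAS1 (0.45) and ADE4 (0.26). Of the purine ring genes, ADE8 had a log2 fold change of -1.18 (adjusted p = 0.0717), ADE13 of -1.03 (adjusted p = 0.105) and ADE3 of -1.02 (adjusted p = 0.106). IMD4 was at -1.40 (adjusted p = 0.0646), and ADK1 at -1.03 (adjusted p = 0.081), against 2.69 without the enzyme. After renormalisation over the S. cerevisiae probe sets the calls numbered 2, which were ADK1 and IMD4, beside 6.26% of all genes. Without either glucose control they numbered 19, beside 54.1%.

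Averaged over both levels of Flavourzyme, the maltose groups were lower than the glucose groups for 10 members at an adjusted p under 0.05 and higher for 4, beside 11.3% and 23% of all genes. The average shares its control arrays with the comparison above and is no separate evidence. Renormalised over the S. cerevisiae probe sets, the members were 11 lower and 3 higher, beside 15.8% and 17.3% of all genes. Centred on the median, they were 12 lower and 2 higher, beside 14.8% and 16.3%. The 6 purine ring genes among those lower were ADE3 (log2 fold change -1.49), ADE8 (-1.16), ADE1 (-1.15), ADE13 (-0.99), ADE16 (-0.54) and ADE2 (-0.52), and the others were IMD4 (-1.14), FCY1 (-0.90), HPT1 (-0.72) and PRS2 (-0.59). Those higher were URA10 (0.87), ADK1 (0.83), APT1 (0.70) and RNR4 (0.53). Without and with Flavourzyme, URA10 was at 1.47 and 0.27, APT1 at 1.30 and 0.09, and RNR4 at 0.68 and 0.38. ADK1 was at 2.69 and -1.03, so its average joins opposite signs. The authors' methods also ask for an absolute log2 fold change over 1.301 in this comparison, which ADE3 alone passed (standard error 0.21, adjusted p = 0.0103), beside 8.8% of all genes, 3.57% lower and 5.24% higher. Each of the 14 calls, that of ADE3 included, was lost when either maltose control or either glucose Flavourzyme array was left out, and APT1 was lost under both rescalings and RNR4 under centring. Without moderation 11 of the 14 were lost, ADE3 among them, and the 3 called were ADE2, HPT1 and RNR4, beside 10.3% of all genes. With the replicate number as a block in the model, 9 members passed the adjusted p, beside 25.7% of all genes. ADE2 and RNR4 were lost there, as were PRS2, ADE16 and APT1. On the arrays themselves, the 3 from maltose did not overlap with the 4 from glucose for 14 members, 12 of them lower and 2 higher, beside 41.1% of all genes apart, 14.2% lower and 26.9% higher. Of the 10 genes of the purine ring group 7 were among the 12.

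Flavourzyme itself gave few calls, among these genes as among all genes tested. In glucose wort 0 members were called by limma or without moderation, 0% of all genes were called, and 4 members had an unadjusted p under 0.05, as did 393 of the 5635 genes. The duplicates with and without the enzyme did not overlap there for 17 members, beside 29.7% of all genes, with 14 lower and 3 higher under Flavourzyme, beside 19.3% and 10.4%. Without glucose control replicate 1 the number called was 7, beside 9.99% of all genes, and without replicate 2 it was 10, beside 33.3%. In maltose wort 1 member was called, beside 1.99% of all genes, and 13 had an unadjusted p under 0.05, as did 1246 of the 5635 genes. The lone Flavourzyme array lay outside the pair of maltose controls for 37 members, beside 92.1% of all genes, below them for 23 and above them for 14, beside 49.2% and 42.9%. The member called was ADK1, which fell 6.25-fold from 11.44 and 11.25 in the maltose controls to 8.70 with Flavourzyme (log2 fold change -2.64, standard error 0.27, adjusted p = 0.0435). This comparison shares the maltose controls with that of the control worts. In glucose wort, ADK1 had a log2 fold change of 1.08 in the other direction (standard error 0.22, adjusted p = 0.701), and its duplicates with and without Flavourzyme did not overlap. Without either maltose control or either glucose Flavourzyme array ADK1 was not called in maltose wort, and without either glucose control 21 members were called, beside 38.4% of all genes. Without moderation the member called was RNR4 (log2 fold change -0.57) and not ADK1, beside 0.16%.

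**Figure D5:**
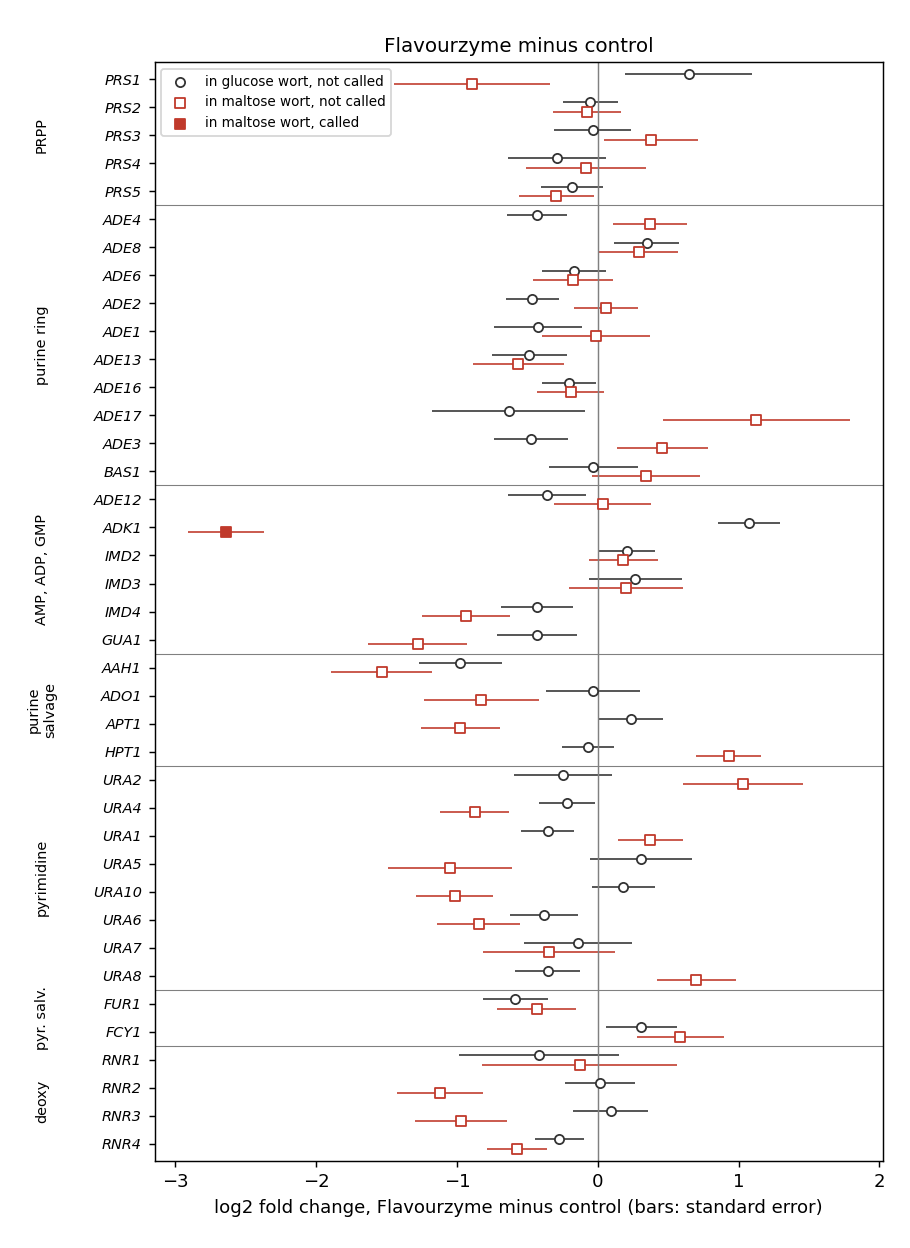
The log2 fold change of each member between fermentations with and without Flavourzyme is plotted with its standard error, as circles in glucose wort and as squares in maltose wort, filled where called. ADK1 in maltose wort, at -2.64, is the 1 filled symbol, and in glucose wort ADK1 lies at 1.08.

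Averaged over the worts, 0 members were called for Flavourzyme by limma or without moderation, beside 0.0355% of all genes, and 11 had an unadjusted p under 0.05, as did 901 of the 5635 genes. On the arrays, all 3 with Flavourzyme were below all 4 controls for 5 members and above them for 0, beside 2.4% and 0.994% of all genes (3.39% apart in all). These 5, named after their values were seen, were AAH1, GUA1, URA4, URA6 and FUR1. AAH1, whose product turns adenine into hypoxanthine, was at 6.98 and 6.97 in the glucose controls, 7.07 and 7.21 in the maltose controls, 5.60 and 6.39 in glucose wort with Flavourzyme and 5.61 in maltose wort with Flavourzyme. Its controls were close together and its Flavourzyme arrays 0.57 or more below them, yet it was not called (log2 fold change -1.26, standard error 0.23, adjusted p = 0.186). GUA1 had 9.32 and 10.09, 9.77 and 9.66, 9.24 and 9.31, and 8.43 on the arrays in that order, so that the maltose Flavourzyme array was its lowest (log2 fold change -0.86, standard error 0.23, adjusted p = 0.21). For URA6, FUR1 and URA4 the log2 fold changes were -0.62, -0.51 and -0.55, with adjusted p from 0.231 to 0.268.

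The interaction, the difference between the worts in their response to Flavourzyme (maltose minus glucose), gave 0 calls among the members by limma or without moderation, beside 0.0355% of all genes, and 7 had an unadjusted p under 0.05, as did 1076 of the 5635 genes. ADK1 had the largest difference (log2 -3.72, standard error 0.35, adjusted p = 0.0614), which was called after renormalisation over the S. cerevisiae probe sets (log2 -3.80, adjusted p = 0.0382), beside 2.96% of all genes. The other 6 were URA10 at -1.20, APT1 at -1.21, RNR2 at -1.14, RNR3 at -1.06, HPT1 at 1.00 and URA8 at 1.06, with adjusted p from 0.169 to 0.254. For URA10, APT1, RNR3 and HPT1 the maltose controls were the arrays that stood apart, as the plot of called genes by array shows. Without glucose control replicate 1 the interaction was called for 16 members, beside 31.3% of all genes, and without replicate 2 for 17, beside 39%. PRS1, PRS3 and PRS4, with the smallest p among the PRPP synthetases, had interactions of -1.54, 0.42 and 0.21, none of them called (lowest adjusted p 0.307).

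Other genes of nucleotide metabolism were counted from further lists, all between the maltose and glucose controls unless said otherwise, and every call named in this paragraph was lost when either maltose control was left out. Among 18 other salvage and interconversion enzymes, 8 were called higher with maltose and 1 lower, or 6 and 2 after renormalisation over the S. cerevisiae probe sets. Over all genes, the shares called higher and lower were 18.7% and 9.81% as given and 17.1% and 14.6% after renormalisation, and they serve for the counts of calls between the controls in the other lists too. Without moderation 2 of the 18 were called, both higher. DUT1, whose product removes dUTP, had 7.01 and 6.60 in the glucose controls, 9.08 and 8.94 in the maltose controls, 7.73 and 7.75 in glucose wort with Flavourzyme and 6.85 in maltose wort with it. As with ADK1, the maltose controls were the only high arrays (log2 fold change 2.20, standard error 0.21, adjusted p = 0.00746), and in maltose wort DUT1 fell with Flavourzyme (log2 fold change -2.15, adjusted p = 0.0435). CDC21, for thymidylate synthase, also rose with maltose (log2 fold change 1.96, standard error 0.27, adjusted p = 0.011). CDC8, for thymidylate kinase, was instead highest in maltose wort with Flavourzyme, at 11.08 against 9.10 to 9.58 on the other arrays (Flavourzyme effect in maltose wort 1.71, adjusted p = 0.0461). Without moderation DUT1 was called between the controls but CDC21 was not, nor were DUT1 and CDC8 with Flavourzyme. Of 10 genes that supply folate or its single-carbon units, 3 were called lower and 1, MIS1, higher. Those lower were SHM2 (log2 fold change -1.66, adjusted p = 0.0137), GCV1 (-1.43, adjusted p = 0.00973) and FOL2 (-1.12, adjusted p = 0.016), for serine hydroxymethyltransferase, a subunit of glycine decarboxylase and GTP cyclohydrolase. MIS1 was lost on renormalisation, and without moderation GCV1 and FOL2 alone were called. Without either glucose Flavourzyme array the calls of SHM2, FOL2 and MIS1 were lost too, as were those of CDC8 and of DUT1 with Flavourzyme.

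Of 7 nucleobase and nucleoside carriers, 2 were called lower with maltose and 1 higher. These were the uridine permease gene FUI1 (log2 fold change -1.24, adjusted p = 0.0127), the uracil permease gene FUR4 (-1.34, adjusted p = 0.0337) and TPN1, for a related carrier of vitamin B6 (1.07, adjusted p = 0.031). FCY2, for the permease of purines and cytosine, was lowest in maltose wort with Flavourzyme, at 9.55 against 10.89 to 11.44 on the other arrays (Flavourzyme effect in maltose wort -1.39, adjusted p = 0.0477). All of these calls were lost when either maltose control was left out, and those of FUR4, TPN1 and FCY2 also without either glucose Flavourzyme array and without moderation. Of 10 regulators of these pathways, limma called 0 between the controls, and 3 had an unadjusted p under 0.05 (2453 of the 5635 genes). Averaged over Flavourzyme, DUN1, for the kinase that releases ribonucleotide reductase from its inhibitors, was higher with maltose (log2 fold change 1.24, adjusted p = 0.0143), as was HUG1, for a small inhibitor of the enzyme (1.66, adjusted p = 0.03). Both were lost without moderation and when any array other than a glucose control was left out. Over all the alternatives the log2 fold change of DUN1 ranged from 0.71 to 1.41. SML1, another inhibitor, ranged from 11.76 to 12.66 and was highest in maltose wort with Flavourzyme.

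As a check of the state of the cells, genes linked to growth, to stationary phase and to household functions were counted between the controls in the same way. Of 16 genes for RNA polymerase I and ribosome assembly, 3 were called higher with maltose and 1, CBF5, lower, with a median log2 fold change of 0.18. Of 13 stationary phase and stress genes, 3 were called lower and 0 higher, with a median of -0.03. All these calls were lost without either maltose control, and without moderation 1 of the 16 and 2 of the 13 were called, each lower. The stationary phase gene SPG4 had 13.45 and 13.22 in the glucose controls, 11.34 and 11.33 in the maltose controls, 13.59 and 13.24 in glucose wort with Flavourzyme and 13.57 in maltose wort with Flavourzyme. Its maltose controls were thus the arrays that stood apart, as for ADK1, APT1 and HPT1, and the part of growth state in those results was not tested. Of 8 household genes measured, limma called 0 and 1 had an unadjusted p under 0.05. Their median log2 fold change was 0.55 against 0.20 over all genes. With Flavourzyme in glucose wort, 11 of the 16 growth-linked genes were lower, as were 3370 of the 5635 genes (medians -0.24 and -0.08). In maltose wort, with its lone Flavourzyme array, all 16 were lower, as were 2978 of the 5635 (medians -0.53 and -0.04). The part of growth state in the Flavourzyme results was not tested.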

How the data were processed

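Total RNA of 7 stationary phase samples was hybridised to Affymetrix Yeast Genome 2.0 arrays, 1 array per sample. The authors made the image files with Microarray Suite and the deposited log2 values with RMA (package affy), that is, background correction, quantile normalisation between arrays and median polish over the probes of a set. The version of affy that the authors ran is not given in the sources used here. These values were taken without further change. Of 10928 probe sets, 5685 named S. cerevisiae genes in the platform's probe annotation, and the probe set with the highest mean was kept for each of the 48 genes with several, which left 5635 genes. Controls, S. pombe probe sets and 68 probe sets without annotation were not tested, and no gene was removed for a low signal. Precision is limited by the number of arrays.

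Groups were taken from the sample titles. limma 3.58.1 in R 4.3.3 fitted the 4 group means to all 7 arrays, with 3 residual degrees of freedom and eBayes moderation (2.78 prior degrees of freedom, prior SD 0.251). Comparisons were the wort effect, the Flavourzyme effect, their interaction, and each effect within the levels of the other factor. Genes were called at an adjusted p under 0.05. For both averaged effects the methods' limit of 1.301 on the absolute log2 fold change, which equals -log10 of 0.05, was applied and also left out. The procedure was tested on simulated data in which genes varied independently and changes were set in the maltose control alone. That simulation held no gap between whole arrays such as that of the glucose controls, so it cannot show how calls behave under one.

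Members, gene lists and tests were chosen with earlier results of these data known. Values on every array were given for members called in a comparison, up to 6 per step, or for the 3 with the smallest interaction p where none was called, and for related genes. From the lists of carriers, other salvage and interconversion enzymes, regulators and folate genes, up to 3 genes with the smallest p were named, with others where a count of calls was small. The lists of growth-linked, stationary phase and household genes served as checks. Alternatives were renormalisation by quantiles over S. cerevisiae probe sets, centring on their median, a filter at 4.96, the mean of a gene's probe sets, analysis of variance without moderation, robust moderation with an intensity trend, the replicate number as a block, no fold limit, and leaving out each array.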

Additional observations from a re-analysis of the deposited data

How the results depend on the processing

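The counts of members called moved most when an array was left out, which can change a group's mean and size as well as the estimate of the spread, and the share of all genes called moved too. With each array left out in turn, the members called ranged from 0 to 26 between the control worts (13 with all arrays), from 0 to 5 for the wort effect with the fold limit (1 with all arrays), from 0 to 17 for the interaction, from 0 to 10 for Flavourzyme in glucose wort, from 0 to 21 for Flavourzyme in maltose wort and from 0 to 19 for wort with Flavourzyme. The averaged Flavourzyme effect called 0 members in every setting. Leaving out the maltose Flavourzyme array gives no value for the interaction, for Flavourzyme in maltose wort or for wort with Flavourzyme. The averaged wort effect is then the comparison of the control worts alone, and the averaged Flavourzyme effect that in glucose wort alone. The 5 members given for the wort effect came from that setting, so they are not calls of the averaged effect. Analysis of variance without moderation called 5 members between the control worts and 0 for the wort effect (3 by adjusted p alone). Centring on the median called 3 for the wort effect, and 14 passed the adjusted p alone. Renormalisation by quantiles called 1 for the interaction and 2 for wort with Flavourzyme. Filtering at 4.96, averaging probe sets and robust moderation left each count within 1.5 times the reported one.

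Samples with the same replicate number did not deviate together (correlations of 0.00736, 0.182 and 0.102 over all genes), so the numbers were not taken as pairs. With the replicate number as a block, 0 members were called for Flavourzyme in maltose wort (ADK1, adjusted p = 0.09), 9 between the control worts, where ADE2, ADE13, IMD4 and RNR4 were lost, and 1 for the wort effect. The other comparisons had 0 with the block, as without it. No called member changed sign under any alternative. Leaving out a glucose control changes no group mean used for Flavourzyme in maltose wort or for wort with Flavourzyme. Those counts therefore moved through the estimate of the spread alone. Where another count moved and no reason is given above, the cause was not tested. With 1 or 2 arrays per group, small differences among weakly responding members were not detectable.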
